A study of Homo sapiens with 35 samples.

Results

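Chromosome 1 is the largest human chromosome, and its contacts with the nuclear lamina were described here arm by arm and domain by domain. Its members were all 100-kb bins of chromosome 1 that had a value in every cell, 2255 of the 26584 bins measured in every cell over the whole table. The short arm was taken as the 1205 bins before the centromere gap, 210 bins without values that begin at position 121500001, and the long arm as the 1050 bins from position 142500001 on. The 32 samples were single cells of 1 group, clone 5-5 of KBM7, a human chronic myeloid leukaemia cell line, labelled diploid (2N), and all came from this 1 clone. Each cell carried the adenine methylase Dam fused to lamin B1 (LaminB1), was treated with 0.5 nM Shield1 for 15 h to induce methylation, and was among the 2% smallest cells that carried both Fucci cell-cycle markers. No separate cultures, no cells with unfused Dam and no other condition were used here. Regions were therefore compared within cells, and the p-values of these comparisons measure only the spread between these cells. Positions are those of the hg19 build, counted from 1.

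The nuclear lamina is a mesh of lamin filaments under the inner nuclear membrane. Chromatin that touches it forms lamina-associated domains, which in human cells are mostly poor in genes, little transcribed and replicated late. Chromosome 1 holds both kinds of chromatin on a large scale, with gene-rich bands towards the end of its short arm and beside the centromere, and long gene-poor bands in the middle of both arms. In DamID the fused methylase marks GATC sites near the lamina, and the marked fragments are amplified and sequenced. The measure for a bin in a cell is its observed over its expected reads (OE), and an OE of at least 1 was called a contact. The table does not separate the copies of a chromosome, and a call can come from any time in the 15 h of induction.

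Recovered sequencing reads numbered 40279 to 258225 in 29 cells, whereas cells 13, 15 and 17 had 985 to 1755. In these 3 shallow cells a single read gave a median OE of 13.7 to 24.9, so 1 read sufficed for a contact, while most bins had none. Values over the other 29, called the deeper cells, are given beside the results they touch. Deeper cells also had more contacts: the contact share and log10 reads of the deeper cells had a Pearson's r of 0.732 for the short arm and 0.429 for the long arm, as a description of cells that differ in depth.

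Chromosome 1 touched the lamina less than the remainder of the genome. In an average cell, 18.4% ± 7.20 of its bins were in contact, against 27.1% ± 8.23 of the 24329 bins off chromosome 1 (SD, n = 32). The difference was -8.70 percentage points ± 3.98 (SD), with chromosome 1 lower in 32 of 32 cells (sign-flip permutation test over cells, two-sided, p = 1e-05, the smallest that 100000 resamples can give; adjusted p = 1e-05 over 3 comparisons). Both arms had this lower share. The short arm had a contact share of 17.7% ± 7.20 and was lower than the bins off chromosome 1 in 32 of 32 cells, with a difference of -9.38 points ± 3.90. The long arm had a share of 19.1% ± 8.68 and was lower in 29 of 32 cells, with a difference of -7.92 points ± 6.33 (adjusted p = 1e-05 for each arm by the same permutation test). Without the 3 shallow cells the shares were 20.0% ± 5.32 for chromosome 1, 19.3% ± 5.43 for the short arm and 20.8% ± 7.27 for the long arm, against 29.4% ± 3.98 off chromosome 1 (SD, n = 29). In these deeper cells the short-arm share had a lowest value of 9.63%, a median of 19.5% and a highest of 28.8%, the long-arm share 9.52%, 19.8% and 37.8%, and the share off chromosome 1 22.9%, 27.6% and 37.3%. The ranges overlapped.

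**Figure D1:**
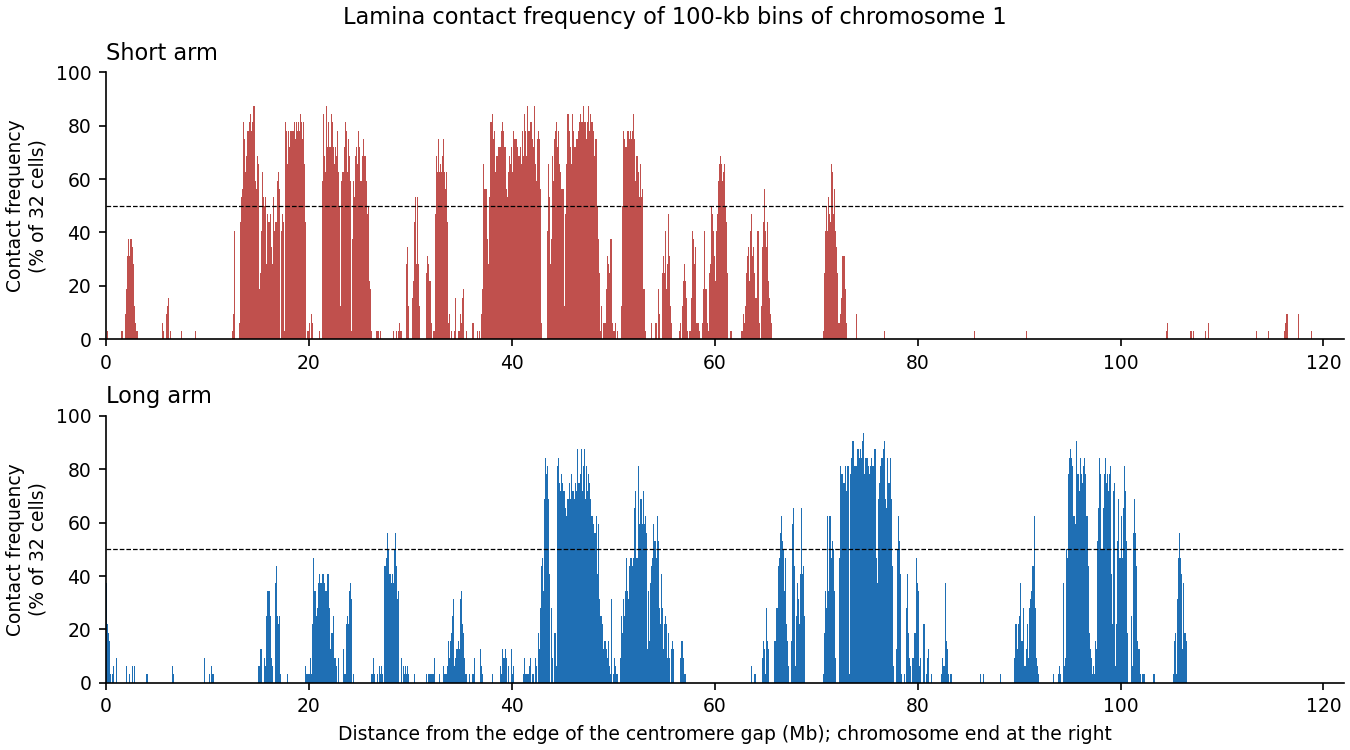
Contact frequency of each used 100-kb bin (percent of 32 cells with an OE of 1 or more) against its distance in Mb from the edge of the centromere gap, for the short arm (top) and the long arm (bottom); the dashed line marks 50%. The short arm has most of its contacts in 1 broad zone nearer to the centromere than to the end and almost none over the 49.6 Mb towards its end, whereas the long arm has several separate groups of contacted bins.

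Counted over bins, chromosome 1 was made up of fewer contacted and more untouched bins than the table. Over all used bins, 8.43% had a contact frequency of 80% or higher, and 42.0% touched the lamina in no cell. Of chromosome 1, 100 bins (4.43%) and 1187 bins (52.6%) fell in these classes. The counts depended on the settings: with an OE limit of 0.5, a limit of 2 or any read counted as contact, 235, 4 and 382 bins of chromosome 1 reached 80%, and with any read 135 bins had no contact in any cell. Without the 3 shallow cells 179 bins reached 80%, and without the 8 sparsest cells 190. For a bin in contact in 0 of 32 cells, a contact share of up to 9.38% of cells remains possible, from counting error alone and with all 32 cells counted alike. The 3 shallow cells had no read in most bins and add little here, so the limit is somewhat higher. The arms are described by the same classes, without a test between them. Bins without a contact in any cell made up 59.4% of the short arm and 44.9% of the long arm. Bins of rare contact were more frequent on the long arm: bins with a frequency above 0 and under 20% made up 12.3% of the short arm and 23.7% of the long arm, against 17.7% of the bins off chromosome 1. Bins with a frequency of 80% or higher made up 3.65% of the short arm and 5.33% of the long arm, against 8.80% of the bins off chromosome 1. Without the 3 shallow cells these shares were 7.88% on the short arm and 8.00% on the long arm, against 14.8% off chromosome 1. The highest frequency of a bin was 87.5% on the short arm and 93.8% on the long arm.

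Bins were also tested one by one, against a model in which all bins of a cell have the same contact probability. The number of cells in contact was compared with the number expected from the contact shares of the cells, 8.42 cells per bin, by an exact two-sided Poisson-binomial test adjusted over all 26584 bins. Of all bins 31.5% were in contact in more cells than expected, each in at least 14 cells, and 54.5% in fewer, each in at most 3 cells. On chromosome 1 it was 474 bins (21.0%) and 1477 bins (65.5%). The short arm had 260 bins (21.6%) with more contacts and 829 (68.8%) with fewer, and the long arm had 214 (20.4%) and 648 (61.7%). Without the 3 shallow cells, 472 bins of chromosome 1 were called in contact in more cells than expected, against a background of 31.3%, and 1477 in fewer, against 54.6%.

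**Figure D2:**
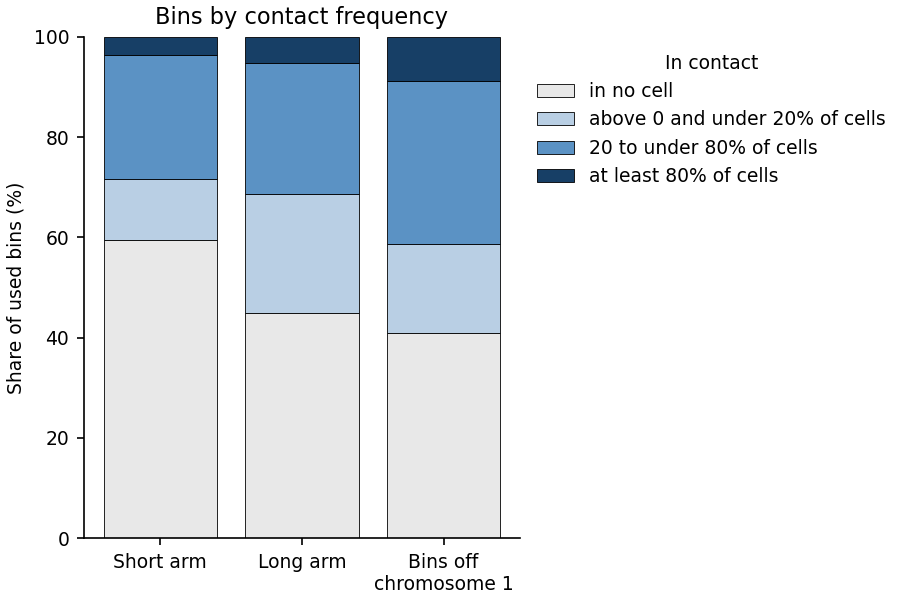
Share of used bins (%) by contact frequency over 32 cells, for the short arm (1205 bins), the long arm (1050 bins) and the bins off chromosome 1 (24329 bins). Never-contacted bins make up 59.4% of the short arm and 44.9% of the long arm, against 41.0% off chromosome 1.

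How much of each arm was in contact was compared within cells. The short-arm share less the long-arm share was -1.46 points ± 6.64 (SD, n = 32) and negative in 19 of 32 cells, which did not pass the test (sign-flip permutation over cells, adjusted p = 0.227 over 4 comparisons of the arms). This call depended on the limit. With an OE limit of 0.5 the difference was -2.97 points (adjusted p = 0.0181) and with any read counted as contact it was -5.11 points (adjusted p = 4e-05). The mean OE was 0.582 ± 0.155 on the short arm, against 0.678 ± 0.234 on the long arm. This difference, -0.0959 and negative in 19 of 32 cells, missed the threshold too (adjusted p = 0.0751).

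Contacts on the short arm lay in longer uninterrupted runs. Of the contacted bins of a cell, 48.7% ± 22.4 lay in runs of at least 1 Mb on the short arm, against 36.7% ± 19.8 on the long arm (SD, n = 32). The difference of 12.0 points ± 17.9 was positive in 20 cells and negative in 9 (sign-flip permutation test, adjusted p = 0.00272). The mean run was 451 kb ± 179 on the short arm, against 374 kb ± 141 on the long arm, a difference of 77.7 kb ± 130 that was positive in 20 and negative in 11 of 32 cells (adjusted p = 0.00384). Among the 29 deeper cells the longest run was 1 to 5.4 Mb on the short arm, with a median of 3.2 Mb, and 1.1 to 5.3 Mb on the long arm, with a median of 2.7 Mb. The differences in runs depended on the limit of a contact: with an OE limit of 2 they were 3.61 points (adjusted p = 0.580) and 7.78 kb (adjusted p = 0.670), and with any read counted 5.08 points (adjusted p = 0.0751) and -3.06 kb (adjusted p = 0.883). With the deeper cells thinned to 40279 reads each, the run difference was 47.3 kb (adjusted p = 0.0394).

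Single cells differed in which arm had the larger share. In cell 25, 12.4% of the short arm and 30.6% of the long arm were in contact, and in cell 23 these shares were 13.8% and 29.4%. In cell 31 the shares were 26.0% on the short arm and 16.8% on the long arm, and in cell 1 they were 22.2% and 14.1%. Of the 29 deeper cells, 5 had a short-arm share more than 5 points above their long-arm share and 9 had a long-arm share more than 5 points above their short-arm share. Over these 29 cells the shares of the arms had a Pearson's r of 0.426. With the cell's share off chromosome 1 taken from each, r was 0.0495 and Spearman's rho 0.101. These correlations describe cells that share depth and the limit of a contact. With the share off chromosome 1 itself, r was 0.794 for the short arm and 0.501 for the long arm. The long arm took 1.46 to 5.41% of a cell's reads, lowest in cell 27 and highest in cell 25, and the short arm 1.64 to 4.40%.

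**Figure D3:**
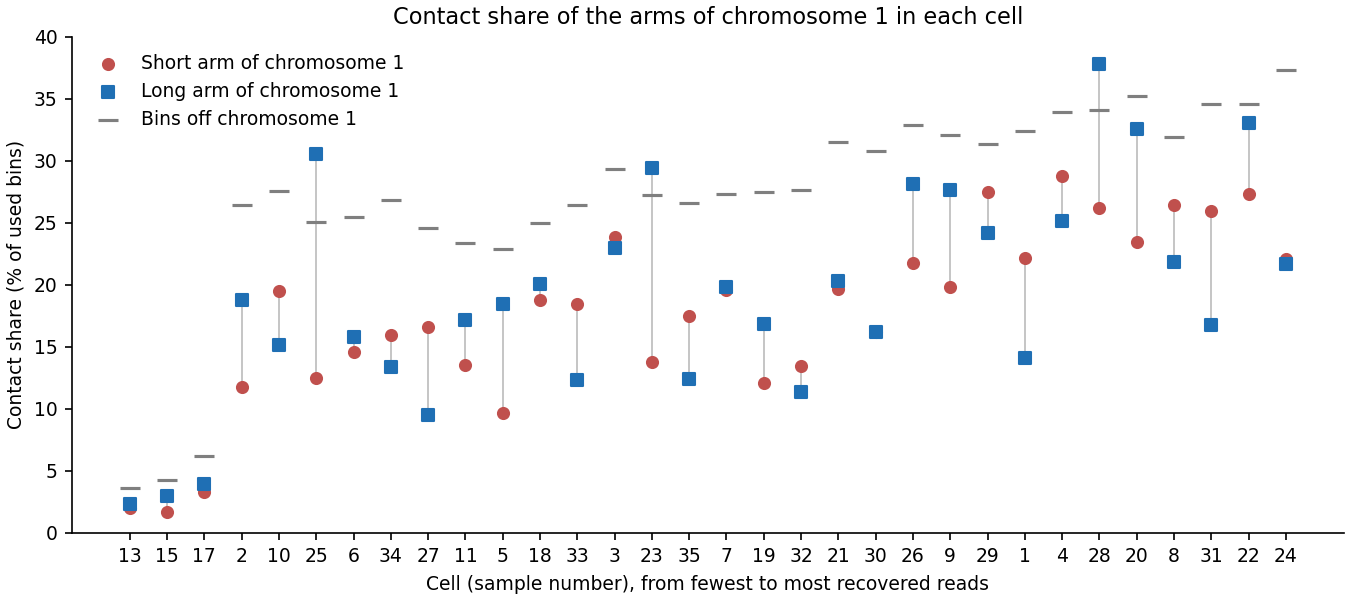
Contact share (% of used bins with an OE of 1 or more) of the short arm (circles), the long arm (squares) and the bins off chromosome 1 (dashes) in each of 32 cells, ordered from fewest to most recovered reads; grey lines join the arms of a cell. The short arm lies below the bins off chromosome 1 in all 32 cells, and the arms change order from cell to cell.

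Along the short arm, contacts began far from the chromosome end. The first bin that reached a contact frequency of 50% began at position 49600001. The 49.6 Mb before it (1 to 49600000) were thus bounded by the frequencies themselves. Of the 489 bins there, 93.9% were never in contact. An average cell had 0.652% ± 0.717 of these bins in contact (SD, n = 32), with a lowest value of 0%, a median of 0.409% and a highest of 2.66%. All 100 bins of the window from 20000001 to 30000000 were never in contact. Going towards the centromere, the mean share per 10-Mb window was 4.69% from 40000001 to 50000000 and 10.7%, 26.0% and 52.8% in the windows that followed, up to 80000000. The window from 70000001 to 80000000 had the highest share of the chromosome, 52.8% ± 20.6 (SD, n = 32), with 5% in the lowest cell, 59.5% in the median cell and 81% in the highest. The windows from there to 110000000 had shares of 40.2%, 32.6% and 42.1%. On the last stretch before the centromere (from 108200001 to the gap), which begins where the last domain described below ends, the share was 3.51% ± 3.42.

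The zone of 39.6 Mb from the first to the last named domain of the short arm (68600001 to 108200000) held 93.6% of the short-arm bins that reached a 50% frequency, on 32.8% of its used bins. Its share was 44.5% ± 16.6 (SD, n = 32), and 48.5% ± 11.2 in the 29 deeper cells. The same contact frequencies chose the edges of this zone, so these values are a description.

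The long arm had contacted and untouched stretches in alternation. From the centromere, its windows had low shares up to 180000000, at 2.64 to 10.6%. The window from 180000001 to 190000000 had a share of 31.0% ± 13.3 (SD, n = 32) and the next, up to 200000000, 30.4% ± 21.1. The share was 6.25% ± 5.39 from 200000001 to 210000000, and 50.8% ± 18.3 from 210000001 to 220000000, where 34 bins reached a frequency of 80%. It was 7.38% ± 6.25 from 220000001 to 230000000 and 23.5% ± 12.3 from 230000001 to 240000000. The window from 190000001 to 200000000 had the largest SD between cells of the 23 windows, with 2% in the lowest cell, 30.5% in the median cell and 73% in the highest.

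Next to the centromere both arms were largely free of contacts. Within 10 Mb of the gap, the short arm had 3.64% ± 4.17 of 98 bins in contact, against 18.9% ± 7.60 of its other bins, and the long arm had 1.96% ± 1.78 of 83 bins, against 20.6% ± 9.37 of its other bins (SD, n = 32). Both differences, -15.3 and -18.7 points, were negative in 32 of 32 cells (sign-flip permutation test, adjusted p = 1.33e-05 over 4 regions). Some bins within 10 Mb of the gap had no read in any cell, such as those from 143300001 to 143500000. Whether such bins can be measured was not tested.

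Each chromosome end was compared with the other bins of its arm. Within 10 Mb of its end the short arm had 0.483% ± 0.907 of 97 bins in contact, against 19.2% ± 7.82 of its other bins, a difference of -18.7 points that was negative in 32 of 32 cells (adjusted p = 1.33e-05). Within 10 Mb of its end the long arm had 26.1% ± 13.2 of 100 bins in contact, against 18.4% ± 8.53 of its other bins, a difference of 7.65 points that was positive in 27 of 32 cells (adjusted p = 4e-05). This rested on the part farther from the end. From 239300001 to 244300000 the share was 44.2% ± 21.2, and in the last 5 Mb it was 7.94% ± 7.91. With 5 Mb in place of 10 Mb the difference on the long arm was -11.8 points (adjusted p = 1e-05). The difference between the ends themselves was not tested.

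Runs of adjacent bins with a frequency of 50% or higher were called domains. Of all used bins 29.0% reached this frequency, and on chromosome 1 it was 235 bins of the short arm (19.5%) and 177 of the long arm (16.9%). They formed 25 domains on the short arm, with a median length of 0.4 Mb, and 29 on the long arm, with a median of 0.2 Mb. Of these, 9 on the short arm and 7 on the long arm were single bins. Any bin under 50% split a run, so neighbouring domains can lie close together. Domains of at least 1 Mb numbered 10 on the short arm, where they covered 20.3 Mb, and 5 on the long arm, where they covered 11.3 Mb. Since the frequencies chose the domains, their values are a description. Their mean frequencies below are over 32 cells, and those over the 29 deeper cells were higher. For the named domain with the highest mean it was 91.5% in place of 84.5%, and for that with the lowest 70.9% in place of 65.3%. The 8 longest of each arm are described below, and they held 77.4% of the domain bins of the short arm and 76.3% of those of the long arm.

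Genes are named below as background and landmarks, from general knowledge of the hg19 map. They are a few picked by hand, and other genes of the same stretches, which may be of other kinds, are not named. Whether kinds of genes differ between contacted and never-contacted stretches was not tested. Gene positions on hg19 were not used here, and no gene was given a value. All 28 symbols lie on chromosome 1 in RefSeq's GRCh38.p14 table, in the same order as the stretches they are named for.

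The longest domain of the chromosome spanned 5.1 Mb of the short arm (78600001 to 83700000). It lies in a gene-poor stretch with the adhesion receptor genes ADGRL4, active in endothelium, and ADGRL2, a latrophilin of synapses. Its mean contact frequency was 72.5%, and no bin fell under 53.1%. In the 29 deeper cells its contact share was 35.3 to 100%, with a median of 92.2%, and the mean OE was 0.902 to 5.22 with a median of 2.11. All of its bins were in contact together in 3 of 32 cells. The longest short-arm run of a cell overlapped it in 13 of the 29 deeper cells, and these runs were 2.7 to 5.4 Mb long.

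Towards the chromosome end from it lay a domain of 3.1 Mb (73000001 to 76100000), which holds the cardiac kinase gene TNNI3K and the quinone reductase gene CRYZ. It had a mean contact frequency of 77.2%, and 14 of its 31 bins reached a frequency of 80%, the most of any named domain of the short arm. Its mean OE in the deeper cells was 0.583 to 5.03 with a median of 2.66. A gap of 0.2 Mb separated it from a domain of 1.2 Mb (76300001 to 77500000) with the sialyltransferase gene ST6GALNAC3, in contact in 67.4% of the cells on average.

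A domain of 2 Mb (68600001 to 70600000) stood alone. It holds RPE65, the retinoid isomerase of the retinal pigment epithelium. Its mean frequency was 69.4%, but the bins within 1 Mb on either side had a frequency of 4.69% and 3.44%. In the deeper cells its contact share was 0 to 100% with a median of 90%, and 2 of the 29 cells, cells 5 and 25, had none of its bins in contact.

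Nearer the centromere the named domains of the short arm were 1.3 to 1.9 Mb long. The domain from 101900001 to 103800000, with the olfactomedin gene OLFM3 and the fibrillar collagen gene COL11A1, had the highest mean frequency of the 8 on this arm, 77.5%. The domain from 106400001 to 108200000, with the axon guidance gene NTNG1, had 72.4%. The domain from 98400001 to 100200000, with the sorting nexin gene SNX7 and the neuronal phosphatase-related gene PLPPR4, had 71.9%. It ended sharply on its centromere side, where the next 1 Mb had a frequency of 0.938%, against 63.4% on the other side. The domain from 95800001 to 97100000 had 66.8%, the lowest of the named domains of the short arm.

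On the long arm the longest domain spanned 3.9 Mb (187000001 to 190900000). It is a gene desert apart from BRINP3, a gene expressed in neurons. Its mean frequency was 72.7% and its mean OE in the deeper cells was 0.784 to 6.60 with a median of 2.67. A short domain of 0.5 Mb beside it (185700001 to 186200000) had 76.2%.

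The 3 named domains with the highest mean frequencies of the 16 were neighbours on the long arm. The middle one, of 2.6 Mb (215800001 to 218400000), holds ESRRG, the oestrogen-related receptor gamma gene. It had a mean frequency of 84.5%, no bin under 78.1%, and 23 of 26 bins that reached 80%. In the deeper cells its contact share was 34.6 to 100%, with a median of 96.2%, and its mean OE was 0.946 to 6.63 with a median of 3.19. All of its bins were in contact in 13 cells. The domain before it (214900001 to 215700000, 0.8 Mb), with the potassium channel gene KCNK2, had a frequency of 78.5%, and the domain after it (218600001 to 220000000, 1.4 Mb), with the lysophospholipase-like gene LYPLAL1, had 78.1%. The longest long-arm run of a cell overlapped the middle domain in 14 and the domain from 187000001 in 10 of the 29 deeper cells.

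The bin with the highest contact frequency of the chromosome lay in this group (217100001 to 217200000). It was in contact in 30 of 32 cells and in 29 of the 29 deeper cells, where its OE was 1.09 to 10.1 with a median of 2.93. A further 5 bins of the long arm were in contact in 29 of 32 cells, and the 2 of these with the highest mean OE over the 32 cells are named. Reads in the 3 shallow cells weigh on this mean and on the count of cells: the highest OE of the 2 bins over all cells was 74.5 and 38.9. The bin from 216000001 to 216100000 was in contact in 27 of the 29 deeper cells, where its OE was 0.589 to 14.3 with a median of 3.87. The bin from 238100001 to 238200000 was in contact in 26 of the 29, with an OE of 0 to 9.59 and a median of 3.49. On the short arm 7 bins shared the highest count, 28 of 32 cells. The 3 of these with the highest mean OE over the 32 cells lay at 79200001 to 79300000, 99700001 to 99800000 and 106900001 to 107000000. They were in contact in 27, 27 and 28 of the 29 deeper cells, where their median OE was 2.78, 3.51 and 4.04.

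Towards the end of the long arm were a domain of 2 Mb (237300001 to 239300000) with a mean frequency of 76.2% and one of 1.4 Mb (240200001 to 241600000), with the G-protein regulator gene RGS7, with 71.0%. Their mean OE in the deeper cells was 0.660 to 6.27 and 0.455 to 6.94. The last of the 8, of 0.9 Mb (194900001 to 195800000), had 65.3%, the lowest of the named domains, and 2 deeper cells had none of its bins in contact.

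**Figure D4:**
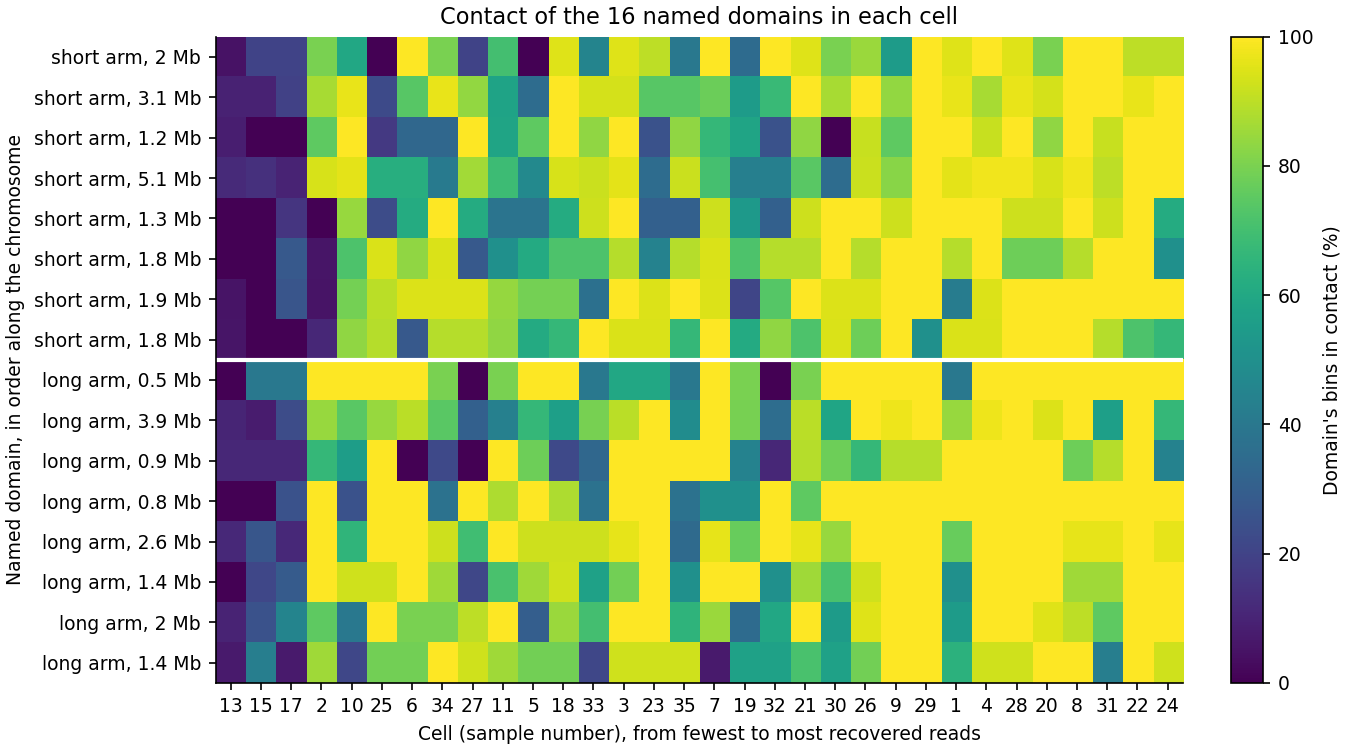
Share of the bins of each of the 16 named domains that were in contact (colour, 0 to 100%) in each of 32 cells, ordered from fewest to most recovered reads; rows run along the chromosome, with the short arm above the white line and the long arm below it. The 3 shallow cells at the left hold no domain, and the other cells hold a median of 14 of the 16.

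Taken per cell, a domain counted as held where at least 50% of its bins were in contact. The 29 deeper cells held 10 to 16 of the 16 named domains with a median of 14, and 10 of them held all 16. The cells that held all had 108779 to 247193 reads with a median of 202205, and the other 19 had 40279 to 258225 with a median of 105667. The part of depth in this was not tested. Cells 13, 15 and 17 held none. On the short arm the deeper cells held 4 to 8 domains and on the long arm 4 to 8. Cells 2, 23 and 25 held 4 of 8 on the short arm and 8 of 8 on the long arm. Cells 27, 33 and 35 held 6 of 8 on the short arm and 4 of 8 on the long arm. Of the 464 pairs of a deeper cell and a named domain, 157 (33.8%) had every bin in contact, 8 (1.72%) had none, and 299 (64.4%) had some. A domain was in contact in every bin in 59 of 232 pairs (25.4%) on the short arm and in 98 of 232 (42.2%) on the long arm, where 3 of the named domains were under 1 Mb.

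Contact shares of neighbouring domains tended to vary together between cells. For each named domain the contact share in a deeper cell was taken less that cell's share off chromosome 1, and pairs of domains were correlated over the 29 cells. These values describe cells that share depth, and domains that share a limit and were chosen by their frequency. Some close pairs are parted only by a short gap, such as the short-arm domains on either side of 76100000 to 76300001. Such pairs need not be separate domains. The median r was 0.497 for the 11 pairs on the same arm up to 5 Mb apart, with all 11 above 0 (0.0311 to 0.864). It was 0.301 for the 13 pairs over 5 to 20 Mb apart and 0.0923 for the 32 pairs on the same arm that were farther apart. For the 64 pairs on different arms it was 0.0419, with 35 above 0. The highest value was 0.864, for the 5.1-Mb and the 1.2-Mb domain of the short arm (78600001 and 76300001). Distance did not order all pairs: r was 0.853 for the domains starting at 185700001 and 218600001 and 0.661 for those starting at 187000001 and 218600001, each over 30 Mb apart. These pairs were picked after their values were seen.

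**Figure D5:**
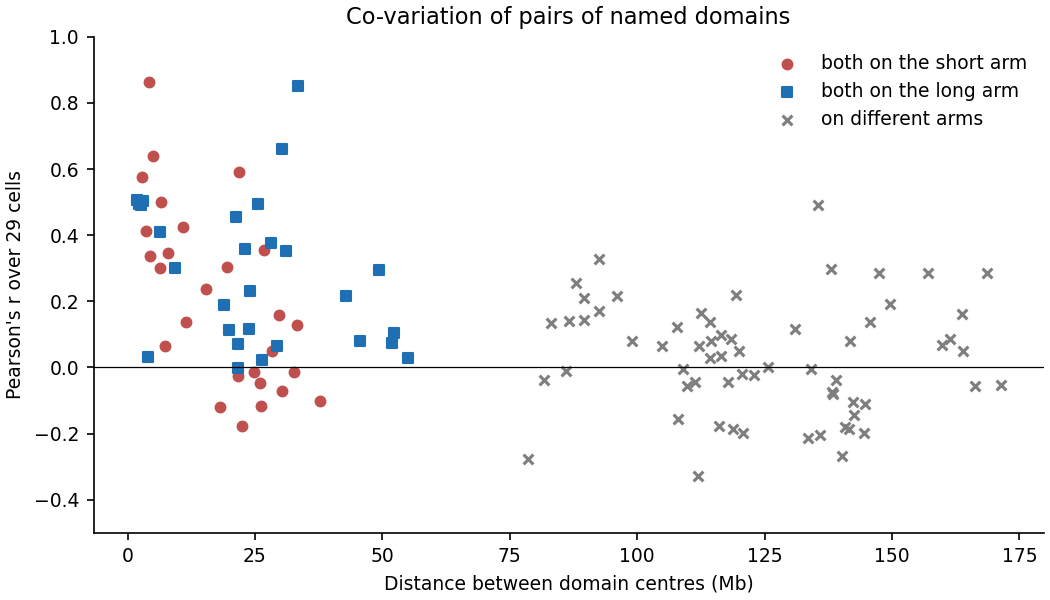
Pearson's r over 29 deeper cells between the contact shares of 2 named domains, each less the cell's share off chromosome 1, against the distance between the domain centres (Mb). Circles are pairs on the short arm, squares pairs on the long arm and crosses pairs on different arms, whose median r is 0.0419.

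Contacted bins in common were counted for every pair of deeper cells. The median Jaccard index (bins contacted in both cells over bins contacted in either) was 0.496 on the short arm (0.207 to 0.779) and 0.421 on the long arm (0.183 to 0.687), against 0.534 off chromosome 1, over 406 pairs that share cells and were not tested. The index also depends on the share of bins in contact. In these cells it was 19.3% on the short arm, 20.8% on the long arm and 29.4% off chromosome 1.

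Stretches that were in contact in no cell were longest on the short arm. It had 17 such stretches of at least 1 Mb, which made up 48.0% of its bins, and the long arm had 12, which made up 26.9%. The longest was 13.5 Mb (17200001 to 30700000). It lies in a gene-rich band that holds the genes of the cell polarity GTPase CDC42 and the ribosomal protein RPL11, and 477 reads were recovered from it over all 32 cells, with a mean OE of 0.0163 ± 0.0150 (SD, n = 32). The next were 8.8 Mb (35900001 to 44700000), with the RNA-binding protein gene YBX1, and 5 Mb (30800001 to 35800000), with the histone deacetylase gene HDAC1. A further 5 Mb (50800001 to 55800000), with the replication origin gene ORC1, lay between contacted bins, with a frequency of 43.1% and 30.6% within 1 Mb on its sides. The fifth was 4.7 Mb (8100001 to 12800000), with the glycolytic enzyme gene ENO1 and the RNA-binding protein gene TARDBP.

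On the long arm the longest were 6.3 Mb (199700001 to 206000000), with the p53 regulator gene MDM4, and 4.3 Mb (153200001 to 157500000), which holds LMNA, the gene of lamins A and C of the lamina itself. Stretches of 2.8 Mb (225900001 to 228700000), with the DNA repair gene PARP1, and of 2.7 Mb (149500001 to 152200000), with the survival gene MCL1, were also never in contact. The fifth, 1.8 Mb (211400001 to 213200000), with the stress response gene ATF3, lay between contacted stretches, with a frequency of 33.8% and 40.6% within 1 Mb on its sides. The mean OE of these 5 stretches was 0.0143 to 0.0253.

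The OE of never-contacted bins was also described. A low OE in every cell chose these bins, and bins of rare contact outside domains are left out. Per deeper cell, the mean OE of such bins over that of such bins off chromosome 1 had a median of 0.749 on the short arm (0.239 to 1.52) and 0.907 on the long arm (0.339 to 1.69), over 716 and 471 bins. The ranges include 1 on both arms.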

How the data were processed

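Single-cell DamID of lamin B1 was measured in clone 5-5 of KBM7. Per the labels' protocols, DpnI cut methylated GATC sites, and adaptor-ligated fragments were amplified (21 extension steps). The deposited values are ratios of observed to expected reads per 100-kb bin and cell. Cutadapt, Bowtie2 2.1.0 and the hg19 build are listed in the submitters' processing notes. For the expectation, read filters and duplicates, the method is not given in the sources used here. Of 35 samples 32 matched a column by the number in the title; samples 12, 14 and 16 were not analysed here.

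Whole reads were recovered from the steps of the values (100% whole within 0.01 reads, which follows from the method) and used for depth only; PCR reads are not independent molecules. Contact shares of regions were compared within cells by two-sided sign-flip permutation tests with 100000 resamples and Benjamini-Hochberg adjustment within 3 families of 4, 3 and 4 comparisons. Bins were tested by an exact Poisson-binomial test, summing the probabilities no larger than that of the observed number, with adjustment over 26584 bins and a threshold of 0.05. Both tests were run on simulated data. There the sign-flip test called true shifts and kept its error rate, and the bin test found most of the strong rises in contact probability, few of the weaker rises and none of the simulated falls when few bins were changed. Named regions were the 8 longest domains, the 5 longest never-contacted stretches and the 3 bins of highest frequency of each arm (ties by mean OE). Members, regions and tests were chosen with earlier results of these data known. Gene lists were not analysed, because gene positions on hg19 were not used here, and no sequence is shown. Alternatives were OE limits of 0.5, 2 and any read, leaving out the 3 shallow or the 8 sparsest cells or the 10% of bins with the lowest expected reads, thinning to 40279 reads, 5 Mb for the regions, and domain limits of 80% and 30%. Python 3.11.15, numpy 2.4.6, scipy 1.17.1 and pandas 2.3.3 were used.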

Additional observations from a re-analysis of the deposited data

How the results depend on the processing

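Of 115 values recomputed under the alternatives, 101 gave the same direction and call or, for counts, a value within 1.5 times. These included chromosome 1 and each arm against the bins off chromosome 1 (-12.0 to -6.13 points), the short-arm end (-27.5 to -11.5 points) and both centromere sides (-34.8 to -10.7 points), under every alternative run. The exceptions were as follows. With any read counted as contact, the arm difference in share was -5.11 points (adjusted p = 4e-05), that in contacts within long runs 5.08 points (adjusted p = 0.0751) and that in run length -3.06 kb (adjusted p = 0.883), 382 bins reached 80% of cells, 135 were never in contact and 86 domains were found in place of 54. With an OE limit of 0.5, the arm difference in share was -2.97 points (adjusted p = 0.0181) and 235 bins reached 80%. With a limit of 2, the run differences were 3.61 points (adjusted p = 0.580) and 7.78 kb (adjusted p = 0.670), and 4 bins reached 80%. Without the 3 shallow cells 179 bins reached 80%, and without the 8 sparsest 190, in place of 100. Within 5 Mb, the long-arm end differed by -11.8 points (adjusted p = 1e-05). The causes of these changes were not tested. Adjusted p ranged from 4e-05 to 0.580 for the arm difference in share, from 0.00132 to 0.580 for long runs and from 0.00136 to 0.883 for run length.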

Other observations

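The parts of the arms that held few contacts were not uniformly empty. On the long arm before the first domain (142500001 to 170200000), 6.57% ± 5.32 of the bins were in contact (SD, n = 32), and runs of bins at 20% of cells or more lay between stretches of low frequency. The longest was 1.8 Mb (162800001 to 164600000), with a mean frequency of 35.6% and any of its bins in contact in 23 of 32 cells. A pair of 0.5-Mb runs (158300001 to 158800000 and 159200001 to 159700000) had a mean frequency of 30.6% each. Any of their bins was in contact in 17 and 20 cells, respectively. The bins directly beside the centromere gap (142500001 to 142700000) had 29.7%, with any of them in contact in 14 cells. Their mean OE in the deeper cells was 0 to 9.45 with a median of 0.

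Close to the end of the long arm, 0.651 Mb from the last position, 5 adjacent bins (248100001 to 248600000) had a mean frequency of 44.4%, and 1 of them 56.2%. Any of these 5 bins was in contact in 22 of 32 cells, in an end region where 58% of the bins of the last 5 Mb were never in contact. On the short arm the only bins at 20% or more before the first domain lay at 48700001 to 48900000 and 49300001 to 49600000, within 1 Mb of that domain, and the bins farther towards the end had none. These runs were picked after their values were seen, and no explanation of them was tested.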
